A study of Homo sapiens with 16 samples.

Results

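RNA of SAOS cells transfected with RB was compared with RNA of SAOS cells transfected with SMYD2, so that transient transfection stood on both sides. The comparison used 8 of the series' 16 expression arrays, chosen by their labels: 4 named for RB and 4 named for SMYD2, each set numbered 1, 3, 4 and 5. SAOS cells are an established line from a human osteosarcoma, without a working retinoblastoma protein (RB) of their own. The RB group received human RB and the SMYD2 group received mouse SMYD2, both on the SAOS background that the labels call wild type. The other 8 arrays came from untransfected control cells and from cells given both constructs, with 4 arrays each, and were used to share the estimate of the spread and as a separate set of arrays. The study asked what overexpressed SMYD2 does to ectopic RB. No empty-vector arm and no share of transfected cells are named in the labels. Nor do they say whether a group's arrays stem from separate cultures, and the p-values therefore cover a spread that may be technical.

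RB binds E2F transcription factors and, with its relatives p107 and p130, represses the genes that carry a cell through DNA replication and mitosis. Promoters of S phase genes often hold an E2F site, and promoters of mitotic genes often hold a CHR, the cell cycle genes homology region that MuvB complexes bind. SMYD2 is a lysine methyltransferase, RB is one of its reported substrates, and L3MBTL1 is a reader of methylated lysine. Reintroduction of RB into SAOS cells is a classical way to make them leave the cell cycle, and RB is also known as a partner of the bone transcription factor RUNX2.

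Of the 368 genes called lower with RB than with SMYD2, 114 belonged to lists of cell cycle, replication, mitosis and repair genes, and the promoters of E2F1, CDT1 and MCM7 (S phase) and CDC20 and SPC25 (mitosis) show the sequence words that these groups are known for. Each is the RefSeq GRCh38.p14 window from 250 bases before to 50 bases after the start of the gene, given on the strand of the gene, with matches in capitals: chr20:33686336-33686635 on the minus strand, chr16:88803539-88803838 on the plus strand, chr7:100101348-100101647 on the minus strand, chr1:43358731-43359030 on the plus strand and chr2:168890381-168890680 on the minus strand. The E2F words searched were TTTCCCGC, TTTGGCGC, TTTCGCGC and TTTGCCGC, the CHR word was TTTGAA, both strands were read, and no E2F match overlapped a CHR match. The window of H2BC4, the histone gene with the largest increase, lies at chr6:26123877-26124176 on the minus strand and is printed last because it holds neither word, unlike 23 of the 36 histone genes with a window.
E2F1: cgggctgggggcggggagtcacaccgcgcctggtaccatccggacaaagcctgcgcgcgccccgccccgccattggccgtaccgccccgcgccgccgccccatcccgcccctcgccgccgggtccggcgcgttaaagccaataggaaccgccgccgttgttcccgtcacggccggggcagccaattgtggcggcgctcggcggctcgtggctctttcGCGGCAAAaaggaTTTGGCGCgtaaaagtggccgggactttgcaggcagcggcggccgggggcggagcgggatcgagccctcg
CDT1: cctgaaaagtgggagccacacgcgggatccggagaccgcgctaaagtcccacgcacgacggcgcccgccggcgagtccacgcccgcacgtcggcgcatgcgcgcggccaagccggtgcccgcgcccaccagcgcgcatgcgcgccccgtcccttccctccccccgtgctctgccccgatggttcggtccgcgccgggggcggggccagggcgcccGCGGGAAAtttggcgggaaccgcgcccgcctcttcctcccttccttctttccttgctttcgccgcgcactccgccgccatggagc
MCM7: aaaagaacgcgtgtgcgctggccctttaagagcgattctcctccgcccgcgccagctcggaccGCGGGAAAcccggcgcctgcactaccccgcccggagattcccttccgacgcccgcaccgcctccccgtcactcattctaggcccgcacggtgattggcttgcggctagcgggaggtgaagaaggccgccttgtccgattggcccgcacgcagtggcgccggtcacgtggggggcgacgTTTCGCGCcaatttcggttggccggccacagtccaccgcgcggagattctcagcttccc
CDC20: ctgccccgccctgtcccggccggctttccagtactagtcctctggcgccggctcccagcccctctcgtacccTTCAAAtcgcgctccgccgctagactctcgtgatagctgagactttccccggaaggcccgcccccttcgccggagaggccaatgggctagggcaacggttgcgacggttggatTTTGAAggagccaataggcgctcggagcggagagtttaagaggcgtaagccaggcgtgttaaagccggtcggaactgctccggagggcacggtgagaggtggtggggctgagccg
SPC25: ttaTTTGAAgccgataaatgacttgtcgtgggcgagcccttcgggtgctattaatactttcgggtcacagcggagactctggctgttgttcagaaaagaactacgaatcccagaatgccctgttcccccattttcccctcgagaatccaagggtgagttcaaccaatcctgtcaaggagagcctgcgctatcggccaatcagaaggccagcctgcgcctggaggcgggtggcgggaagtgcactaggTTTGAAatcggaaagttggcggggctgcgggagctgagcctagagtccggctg
H2BC4: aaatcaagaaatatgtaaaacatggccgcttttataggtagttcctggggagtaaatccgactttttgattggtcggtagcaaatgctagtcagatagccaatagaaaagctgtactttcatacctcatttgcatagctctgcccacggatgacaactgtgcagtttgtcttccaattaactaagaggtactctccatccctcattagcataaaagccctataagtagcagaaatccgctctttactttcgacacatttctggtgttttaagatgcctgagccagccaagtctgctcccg

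A window was at hand for 15384 of the 19775 genes tested. An E2F word stood in 4.36% of them (671), in 15.1% (48 of 317) of the genes called lower with RB and in 2.74% (6 of 219) of those called higher. A CHR word stood in 11.9% of all windows (1836), in 24.9% (79 of 317) of the genes called lower and in 9.59% (21 of 219) of those called higher. Either word stood in 2430 of all 15384 windows and in 122 of the 317 of genes called lower. The windows of E2F1, CDT1, MCM7, CDC20 and SPC25 printed above are among these 122. Of other genes called lower, AURKB, SPC24 and CENPW held no CHR word, and CDC45, TK1, MYBL2 and RNASEH2A no E2F word. By role, 44.0% of the windows of G1/S and licensing genes (11 of 25) held an E2F word and 4.0% (1 of 25) a CHR word. The order was turned round for mitotic entry and spindle genes, of which 7.69% (3 of 39) held an E2F word and 71.8% (28 of 39) a CHR word. Kinetochore genes held a CHR word in 46.9% (15 of 32) and genes of anaphase, cohesion and condensin in 42.1% (8 of 19). Replication-dependent histone genes, of which more rose than fell, held an E2F word in 30.6% (11 of 36) and a CHR word in 33.3% (12 of 36). These are matches of letters in a short window, not measured binding.

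The deposited values are log2 signals, on which a difference of 1 is a doubling, and differences are given as RB minus SMYD2. Arrays correlated at 0.992 to 0.997 within the RB group and at 0.981 to 0.997 within the SMYD2 group. Array 1 of the SMYD2 group stood apart: its ACTB probes at the 3′ end read 3.53 above those at the 5′ end, against 0.56 to 1.63 on the RB arrays and 0.60 to 1.58 on the other SMYD2 arrays, a sign of RNA quality. For GAPDH the same difference was 0.16 on that array and -0.01 to 0.10 on the other RB and SMYD2 arrays. Control array 1, which enters the estimate of the spread, had an ACTB difference of 2.46. With SMYD2 array 1, the median gene had an SD of 0.154 in the SMYD2 group, and without it 0.110, against 0.119 in the RB group. List counts without that array are given where they moved by over 1.5 times, and for all cell cycle lists. Of 43 measured markers of epithelial, blood, endothelial, fat, muscle and neural cells, 1 passed the test (LEP, 4.50 with RB and 4.22 with SMYD2, a gene singled out after its value was seen, with adjusted p = 0.059 without RB array 3). The mean level of the 43 lay between 5.49 and 5.60 on the RB arrays and between 5.52 and 5.68 on the SMYD2 arrays. COL1A1, a defining product of the osteoblast lineage, read 13.68 ± 0.24 (SD, n = 4) with RB and 13.28 ± 0.16 with SMYD2.

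The RB construct was seen in 1 of the 2 RB1 probe sets. In the brighter set the RB arrays 1, 3, 4 and 5 read 7.40, 7.43, 8.10 and 7.87, and the SMYD2 arrays, in the same order, 6.89, 6.59, 6.98 and 6.92. All RB arrays were above all SMYD2 arrays, by 0.86 on average (two-sided exact permutation p = 0.0286, as small as this design can give), although RB1 did not pass the test across all genes (limma adjusted p = 0.162). The dimmer RB1 set read 3.44 ± 0.05 and 3.44 ± 0.08 (SD, n = 4 each) and showed no difference (exact permutation p = 0.914). The array probes are for human transcripts, and the 3 probe sets of SMYD2 did not show the mouse construct in a called difference. The brightest read 10.12, 10.19, 9.86 and 10.03 on the RB arrays and 10.19, 10.30, 10.27 and 10.36 on the SMYD2 arrays, where RB array 3 reached SMYD2 array 1 (difference -0.23, exact permutation p = 0.0571). The other 2 SMYD2 sets differed by 0.03 (exact permutation p = 0.714) and by less than 0.01 (exact permutation p = 1.0). The SMYD2 label is therefore not checked by these probes. L3MBTL1 read 6.48 ± 0.10 with RB and 6.62 ± 0.14 with SMYD2 in its brightest set (exact permutation p = 0.143).

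Cells given RB had lower levels of cell cycle transcripts than cells given SMYD2, and higher levels of 7 of 38 histone genes and of 3 of 18 bone matrix genes. In such bulk RNA, fewer cells in a phase and less RNA per cell cannot be told apart. In all, 642 of 19775 genes (3.25%) passed limma at an adjusted p of 0.05, of which 274 (1.39%) were higher and 368 (1.86%) lower with RB, and 3167 had an unadjusted p under 0.05. The increases reached further than the decreases: in 18 called genes the difference reached 1 or more, always toward higher levels with RB. The largest increase was 3.56-fold (H2BC4) and the largest decrease 1.95-fold (TROAP), while the median called difference was 0.50 upward and -0.50 downward. Arrays of the 2 groups did not overlap in 1769 genes (8.95%), among them 259 of the 274 called higher and 358 of the 368 called lower. Fitted on the 8 arrays of the comparison alone, 193 genes were called, 191 of them among the 642. The count also depended on single arrays: it was 304 without RB array 4, 400 without RB array 3 and 415 without RB array 5. Without SMYD2 array 1 it was 888, with 560 of the 642 called again in the same direction.

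**Figure D1:**
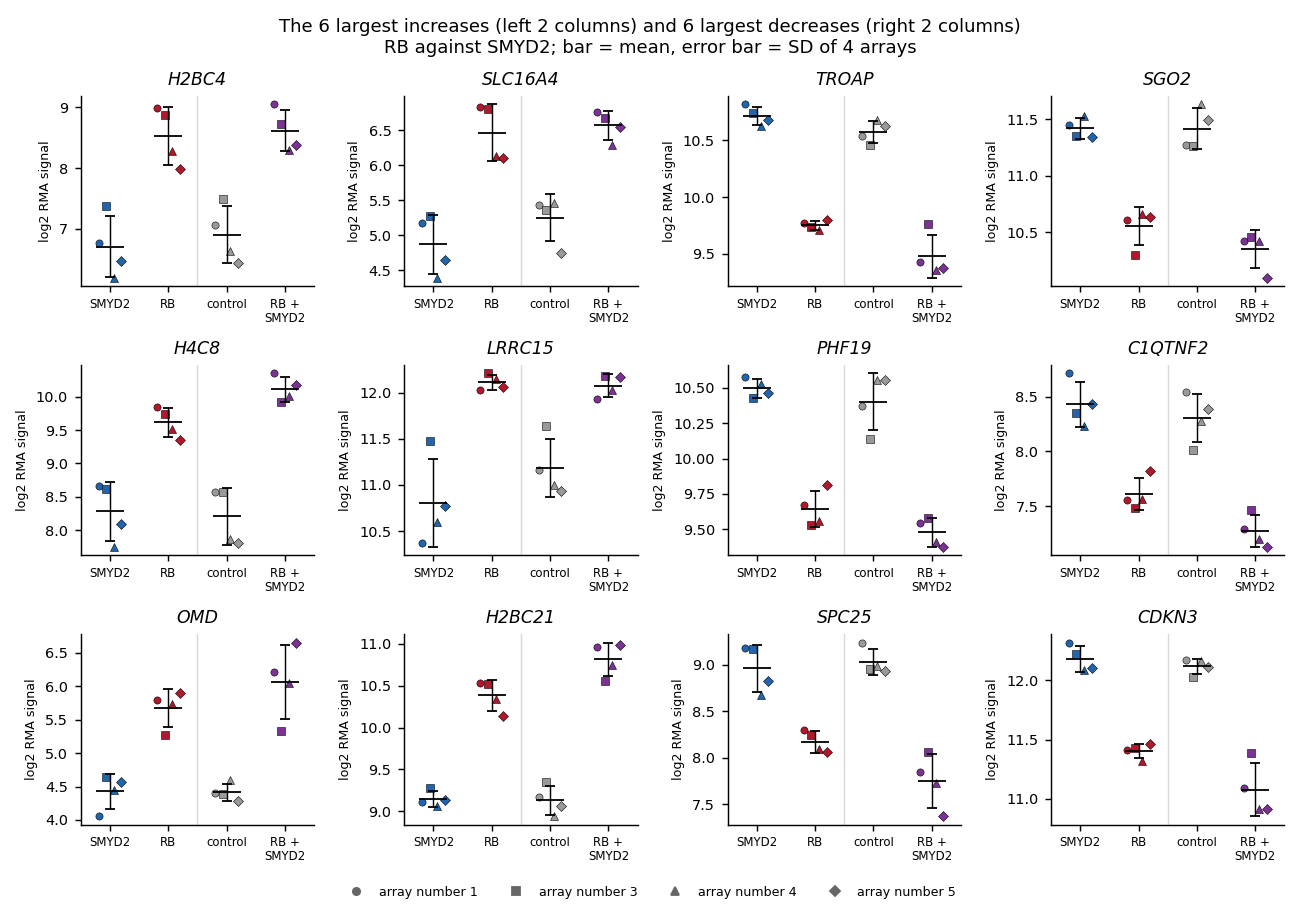
Log2 RMA signal of the 6 largest increases and the 6 largest decreases on each array of the 4 groups, with the mean and SD of 4 arrays. In each panel the 4 RB arrays lie apart from the 4 SMYD2 arrays, as the choice of the genes required, and for H2BC4 they read 7.98 to 8.99 against 6.19 to 7.38.

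The regulators that stand between RB and its targets were partly lower with RB. Of 21 measured genes of the RB and E2F circuit, 6 fell, 0 rose and 15 did not pass (median difference -0.15, and -0.35 without SMYD2 array 1, against -0.01 over all genes). In limma 1 of the 15, RB1 itself, had an unadjusted p under 0.05 upward. MYBL2, the B-Myb subunit that joins MuvB at mitotic promoters, read 8.90, 9.08, 8.92 and 9.14 on the RB arrays and 9.76, 9.67, 9.74 and 9.71 on the SMYD2 arrays. The SMYD2 arrays lay close together and all above the RB arrays, a difference of -0.71 ± 0.11 (SE; adjusted p = 0.0017). FOXM1, the transcription factor of late cell cycle genes, fell by as much, from 9.91, 9.90, 10.20 and 10.04 with SMYD2 to 9.19, 9.39, 9.28 and 9.34 with RB (difference -0.71 ± 0.11, adjusted p = 0.0016). E2F1, an activator E2F, read 8.82, 8.73, 8.78 and 8.999 with RB and 9.51, 9.32, 9.39 and 9.22 with SMYD2, again without overlap (difference -0.53, adjusted p = 0.0032). SUV39H1, the histone methyltransferase of heterochromatin (-0.68), E2F2 (-0.62) and E2F7, a repressor E2F (-0.58), were the other members that fell. E2F2 did not pass without RB array 1 (adjusted p = 0.054), nor E2F7 without RB array 4 (adjusted p = 0.091). An array named in this way, here and for later genes, is one whose omission ended the call, and omission of others ended some of these calls as well. E2F8 (-0.52, adjusted p = 0.061) and RBL1, which encodes p107 (-0.43, adjusted p = 0.055), did not pass, and E2F8 passed without SMYD2 array 1 (-0.65, adjusted p = 0.010). RBL2, which encodes p130, read 9.61 ± 0.07 with RB and 9.49 ± 0.06 with SMYD2 (adjusted p = 0.484).

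Origin licensing and the start of S phase followed, with 15 of 33 measured genes lower, 0 higher and a median difference of -0.45. GINS2, a subunit of the replicative helicase whose window holds an E2F word, read 9.02, 8.99, 8.97 and 9.14 with RB and 9.88, 9.73, 9.57 and 9.68 with SMYD2. Every RB array was lower than every SMYD2 array (difference -0.69, SE 0.09, adjusted p = 3.5e-04). MCM7, a helicase subunit loaded at origins, read 10.51, 10.43, 10.51 and 10.60 against 11.14, 11.11, 11.25 and 11.18 (difference -0.66, adjusted p = 5.6e-04). CDT1, the licensing factor that loads the MCM ring, read 8.40, 8.60, 8.35 and 8.56 against 9.43, 9.08, 8.98 and 8.92. Its SMYD2 arrays ranged more widely, with array 1 highest, and the difference of -0.63 passed with that array (adjusted p = 0.0052) and without it (-0.52, adjusted p = 0.0060). Of the remaining MCM genes, MCM2 (-0.51) and MCM3 (-0.40) fell. MCM4 (-0.54, adjusted p = 0.051), MCM5 (-0.56, adjusted p = 0.155) and MCM6 (-0.30, adjusted p = 0.093) did not pass. CDC45 and GINS1, the partners of the MCM ring in the active helicase, fell by 0.61 and 0.67, GINS1 not passing without SMYD2 array 1 (adjusted p = 0.079) or without RB array 4 (adjusted p = 0.149).

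The cyclins and kinases of the cycle were less uniform. CCNE1 (-0.25, adjusted p = 0.472) and CCNE2 (-0.44, adjusted p = 0.075), the E-type cyclins of S phase entry, did not pass, and neither did CDK2 (-0.37, adjusted p = 0.056). CCNB1, the mitotic cyclin B1, shows how a single array entered these calls. It read 10.74, 10.90, 10.72 and 10.75 with RB and 10.17, 11.59, 11.47 and 11.49 with SMYD2, where array 1 was below all RB arrays and the other 3 above them. With all arrays the difference was -0.40 (adjusted p = 0.395), and without SMYD2 array 1 it was -0.74 (adjusted p = 7.1e-04). CCNA2, CCNE2, CDK2, CDC6, MCM10 and RRM2 likewise passed without that array and not with it, and CDK1 missed the threshold both ways (adjusted p = 0.571 with it and 0.051 without). CCND1, a G1 cyclin upstream of RB, was higher on average with RB (0.48) but its arrays overlapped (adjusted p = 0.273).

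At the replication fork 16 of 29 measured genes were lower with RB, 0 were higher and the median was -0.42. RNASEH2A, the catalytic subunit of the enzyme that removes ribonucleotides from DNA, read 9.66, 9.53, 9.61 and 9.73 with RB and 10.76, 10.34, 10.20 and 10.17 with SMYD2. Its SMYD2 array 1 was the highest of the 8, and the difference was -0.74 with it and -0.60 without it (adjusted p = 0.0017 and 9.7e-04). ASF1B, a chaperone that hands histones to new DNA, read 9.21, 9.31, 9.38 and 9.48 against 9.98, 10.14, 10.06 and 10.07 (difference -0.71, adjusted p = 0.0017). CHAF1A, of the chromatin assembly factor, fell by 0.68, and LIG1, the ligase that joins Okazaki fragments, by 0.62. PCNA, the sliding clamp, read 12.06, 11.98, 11.70 and 11.82 with RB and 12.14, 12.45, 12.27 and 12.28 with SMYD2, a smaller but non-overlapping difference (-0.40, adjusted p = 0.031, and 0.124 without RB array 4).

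Supply of deoxynucleotides was lower in 7 of 11 measured genes, with 0 higher and a median of -0.47, and in 3 without RB array 4. TK1, thymidine kinase, read 10.16, 10.40, 10.25 and 10.32 with RB and 10.51, 11.14, 10.997 and 11.03 with SMYD2. Here SMYD2 array 1 lay between the groups (difference -0.64, adjusted p = 0.018, and -0.78, adjusted p = 0.0017 without it). DTYMK, the next kinase toward thymidine triphosphate, fell by 0.62, with 1 of its 5 probe sets not lower, and RRM1, the large subunit of ribonucleotide reductase, by 0.51. TYMS, thymidylate synthase, fell by 0.47 and SLC29A1, a nucleoside transporter, by 0.53. Without RB array 4 neither TK1 (adjusted p = 0.061) nor TYMS (adjusted p = 0.069) passed.

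Mitotic entry and spindle genes made up the list with the lowest median, -0.58, and 27 of its 45 measured genes fell, 0 rose and all 45 differences were negative. TROAP, a spindle-associated protein and the largest decrease of all genes, read 9.77, 9.73, 9.71 and 9.80 with RB and 10.82, 10.74, 10.63 and 10.68 with SMYD2. The lowest SMYD2 array was 0.83 above the highest RB array, with a difference of -0.97 ± 0.09 (SE; adjusted p = 6.0e-05). AURKB, the kinase of the chromosomal passenger complex, read 8.79, 8.81, 8.79 and 8.85 against 9.55, 9.63, 9.46 and 9.52 (difference -0.73, adjusted p = 3.9e-04). PLK1, a kinase of mitotic entry, read 7.12, 7.15, 7.30 and 7.26 against 8.04, 7.93, 7.81 and 7.85 (difference -0.70, adjusted p = 2.1e-04). For both kinases all RB arrays were below all SMYD2 arrays, as they were for TACC3 (-0.70) and KIFC1 (-0.70), which act at spindle microtubules. ASPM, a protein of the spindle poles, was called (-0.71, adjusted p = 0.044) although SMYD2 array 1 overlapped the RB arrays, and was not called in 13 of 16 fits that each left out 1 array (highest adjusted p = 0.121, without RB array 4).

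The kinetochore list had 22 of 39 measured genes lower, 0 higher and a median of -0.54. The count was 12 without RB array 4 and 14 without RB array 5, SMYD2 array 4 or SMYD2 array 5. SGO2, shugoshin 2, which guards centromeric cohesion, read 10.61, 10.30, 10.66 and 10.64 with RB and 11.45, 11.35, 11.53 and 11.34 with SMYD2 (difference -0.87, adjusted p = 3.5e-04). RB array 3 was the lowest of the 8, and the highest RB array was still 0.68 below the lowest SMYD2 array. SPC25, a subunit of the NDC80 complex that holds microtubules, read 8.29, 8.25, 8.09 and 8.06 against 9.18, 9.17, 8.67 and 8.83 (difference -0.79, adjusted p = 0.0046). Its partner SPC24 fell by 0.73 in its brighter probe set, while its other set did not fall. CENPM and CENPW, which belong to the constitutive centromere network, both fell by 0.76, and KNL1, the scaffold of checkpoint proteins, by 0.72, although 1 of the 4 KNL1 sets was not lower.

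Among genes of anaphase, cohesion and condensin, 12 of 24 measured were lower and 0 higher, with a median of -0.45. CDC20, the activator of the anaphase-promoting complex, read 9.60, 9.58, 9.65 and 9.77 with RB and 10.21, 10.38, 10.66 and 10.45 with SMYD2. The groups were separate, with SMYD2 array 1 the lowest of its 4 (difference -0.78, adjusted p = 7.8e-04). UBE2C, its ubiquitin-conjugating enzyme, fell by 0.71, PTTG1, the securin that blocks separase, by 0.71, and ESPL1, separase itself, by 0.71. NCAPD2, a condensin subunit, fell by 0.72 and CDCA5, sororin, by 0.66.

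Homologous recombination and Fanconi repair genes were lower in 9 of 28 measured, with 0 higher and a median of -0.38, and in 5 without RB array 4. MND1, which works with PSMC3IP in strand exchange, read 8.36, 8.47, 8.38 and 8.59 with RB and 9.44, 9.22, 9.10 and 9.14 with SMYD2, without overlap (difference -0.78, adjusted p = 0.0012). BLM, a RecQ helicase, fell by 0.65, RAD54L, a motor of strand exchange, by 0.64, and FANCI, of the Fanconi ID complex, by 0.58. The 8 lists together held 230 measured genes, of which 114 fell and 0 rose, 216 had a negative difference and the median was -0.47. Over all 19775 genes, 10395 differences were negative and 9380 positive. In limma, 3 of the 230 had an unadjusted p under 0.05 upward. Without SMYD2 array 1 the count of lower genes was 160. It was then 8 for the RB and E2F circuit, 20 for G1/S, 23 for the fork, 7 for deoxynucleotides, 40 for mitotic entry and spindle, 31 for the kinetochore, 17 for anaphase and 14 for recombination and Fanconi repair.

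**Figure D2:**
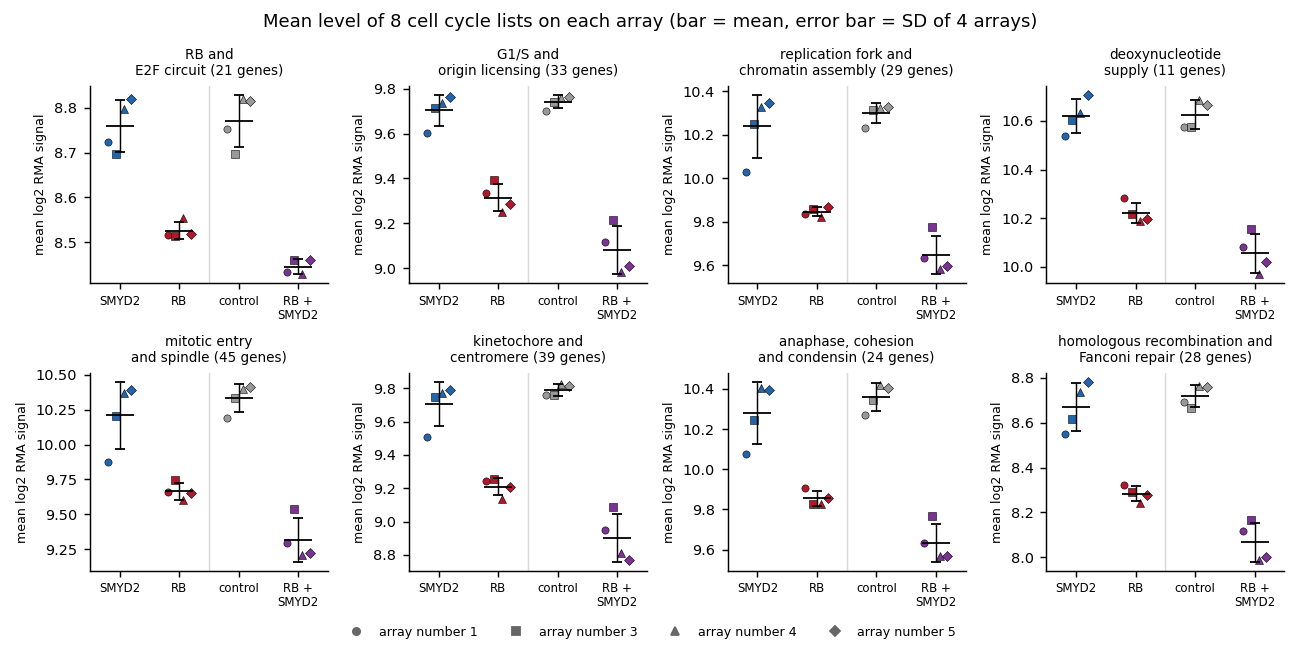
Mean log2 RMA signal over the measured members of each of the 8 cell cycle lists on every array, with the mean and SD of 4 arrays per group. The RB arrays lie below the SMYD2 arrays in each panel, and SMYD2 array 1 lies between the groups for mitotic entry and spindle genes, at 9.87 against 9.60 to 9.74 with RB and 10.21 to 10.39 on the other SMYD2 arrays.

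Inhibitors of cyclin-dependent kinases showed a single increase. CDKN2B, which encodes p15 and binds the kinases that phosphorylate RB, read 8.73, 9.10, 8.58 and 8.41 with RB and 7.27, 8.21, 7.61 and 7.94 with SMYD2. All RB arrays were above all SMYD2 arrays (difference 0.95 ± 0.18, SE; adjusted p = 0.0079), although 1 of its 2 probe sets was not higher. CDKN3, a phosphatase named for its binding to these kinases and known to be high in dividing cells, went the other way, at 11.41, 11.43, 11.32 and 11.46 against 12.32, 12.22, 12.08 and 12.10 (difference -0.78, adjusted p = 2.8e-04). CDKN1A, which encodes p21, read 9.02, 9.17, 9.01 and 8.999 against 9.82, 9.43, 9.04 and 9.03, with 2 SMYD2 arrays near the RB arrays and 2 above (adjusted p = 0.419). CDKN1B (-0.06), CDKN1C (-0.12, and 0.15 without SMYD2 array 1), CDKN2A (-0.07, and 0.01 without it) and CDKN2D (-0.42) did not pass. CDKN2C had no probe set with a single symbol and was not analysed here.

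Histone genes held 3 of the 6 largest called increases that separated the arrays, but the list as a whole did not move together. Of 38 measured replication-dependent histone genes 7 rose, 2 fell and 29 did not pass, with a median of 0.05. H2BC4, a gene for histone H2B, read 8.99, 8.87, 8.29 and 7.98 with RB and 6.77, 7.38, 6.19 and 6.47 with SMYD2. The lowest RB array was 0.61 above the highest SMYD2 array, and the difference was 1.83 ± 0.28 (SE; adjusted p = 0.0015). H4C8, for histone H4, read 9.85, 9.74, 9.52 and 9.35 against 8.66, 8.62, 7.75 and 8.09 (difference 1.34, adjusted p = 0.0019). H2BC21 read 10.54, 10.52, 10.34 and 10.14 against 9.11, 9.27, 9.06 and 9.13, the smallest adjusted p among the 38 (difference 1.24, adjusted p = 6.0e-05). For all of these the highest SMYD2 array stayed below the lowest RB array.

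H2AC6, for histone H2A, read 11.61, 11.49, 11.42 and 11.28 with RB and 10.05, 10.88, 10.25 and 10.36 with SMYD2 (difference 1.06, adjusted p = 6.2e-04). It lies head to head with H2BC4: its window, chr6:26123922-26124221 on the plus strand, shares 255 bases with that of H2BC4 printed above. H1-2, a linker histone, read 12.27, 12.18, 11.75 and 11.64 against 11.51, 11.30, 10.41 and 10.66, where the groups came within 0.13 of each other (difference 0.99, adjusted p = 0.019, and 0.066 without RB array 3). H2AC15 (0.48) and H4C5 (0.44), both named after their values were seen, also rose, H2AC15 not without RB array 4 (adjusted p = 0.154) and H4C5 not without SMYD2 array 4 (adjusted p = 0.094). Downward, H2AC16 (-0.65, adjusted p = 0.026, and 0.103 without RB array 4) and H3C11 (-0.37, adjusted p = 0.033, and 0.103 without RB array 3, named after its value was seen) were called, and neither was called without SMYD2 array 1, when 8 histone genes rose and 0 fell. The count of rising histone genes was 4 without RB array 1, without SMYD2 array 4 or without SMYD2 array 5. Genes of these families are similar in sequence, so that a probe set can read more than 1 of them.

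**Figure D3:**
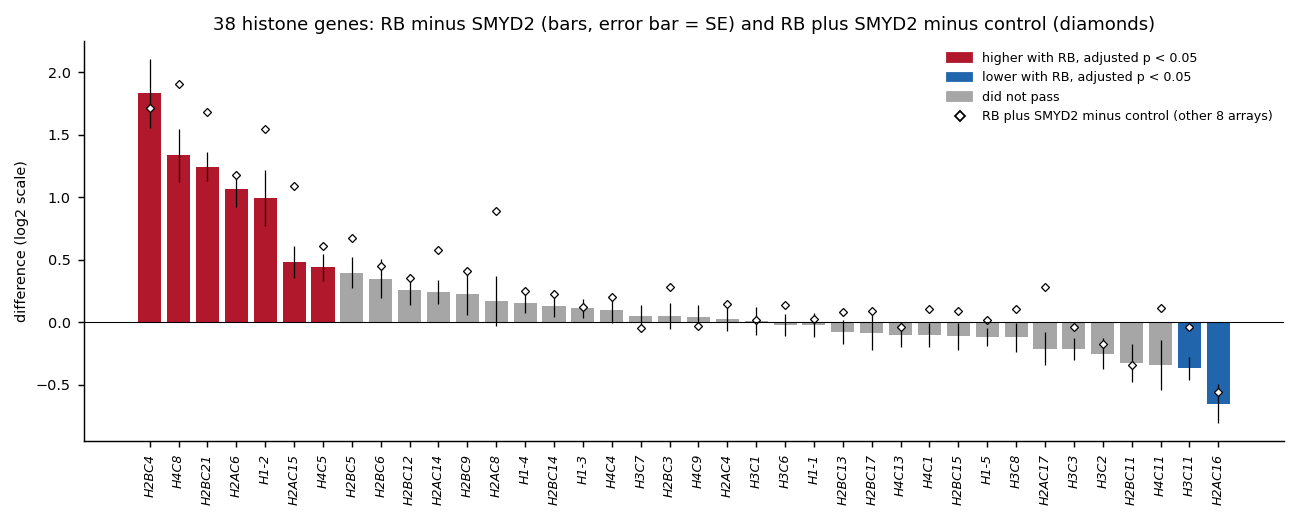
Differences of 38 histone genes on the log2 scale, RB minus SMYD2 as bars with the SE of the fit, and RB plus SMYD2 minus control as diamonds. Bars run from 1.83 for H2BC4 to -0.65 for H2AC16, with 7 called higher and 2 called lower.

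Bone matrix genes were higher with RB in a few members. Of 18 measured osteoblast matrix and mineralization genes 3 rose, 0 fell and the median was 0.23, or 0.10 without SMYD2 array 1. OMD, osteomodulin, a proteoglycan of bone matrix, read 5.79, 5.27, 5.74 and 5.90 with RB and 4.06, 4.64, 4.45 and 4.57 with SMYD2 (difference 1.25 ± 0.21, SE; adjusted p = 0.0030). SPARC, osteonectin, read 11.87, 12.11, 11.72 and 11.61 against 11.24, 11.26, 10.78 and 10.69 (difference 0.83, adjusted p = 0.0091). SPP1, osteopontin, read 6.12, 5.83, 6.34 and 6.24 against 4.78, 5.51, 5.46 and 5.56, with SMYD2 array 1 the lowest (difference 0.81, adjusted p = 0.0091, and 0.62, adjusted p = 0.010 without it), and 1 of its 2 probe sets was not higher. In all 3 genes the groups did not overlap. OMD and SPP1 were dim: on every SMYD2 array both read under that array's median probe set (5.60 to 5.64). COL1A2, a chain of type I collagen, had a mean difference of 1.09 with SDs of 0.79 with RB and 1.01 with SMYD2 (adjusted p = 0.314).

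Among 19 measured osteoblast transcription factors and signals 1 rose and 0 fell, with a median of 0.10, or 0.20 without SMYD2 array 1. That gene was CDH11, the osteoblast cadherin, at 11.66, 11.54, 11.62 and 11.53 with RB and 11.39, 11.31, 11.17 and 11.31 with SMYD2, a small but separate difference (0.29, adjusted p = 0.024, and 0.088 without RB array 4). RUNX2 differed by 0.12 (adjusted p = 0.511), and SP7 by 0.05 (adjusted p = 0.949). Collagen, matrix and adhesion genes were positive in 32 of 36, against 9380 of all 19775 genes. Their median was 0.30, and 3 rose while 0 fell. The count was 1 without RB array 4 or SMYD2 array 4 and 6 without SMYD2 array 3. LOX, the oxidase that cross-links collagen, read 5.63, 5.92, 5.74 and 5.41 against 4.81, 5.24, 4.89 and 5.14 (difference 0.66, adjusted p = 0.022, and 0.077 without RB array 3). It was dim too, under the median probe set on every SMYD2 array. THBS2 (0.50) and COL5A1 (0.48), named after their values were seen, were the others, COL5A1 not passing without RB array 4 (adjusted p = 0.069). COL12A1 had the largest difference of that list (1.19) and did not pass (adjusted p = 0.053). None of 18 genes of TGF-beta signalling passed in limma (0 of 18, with 3 at an unadjusted p under 0.05).

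**Figure D4:**
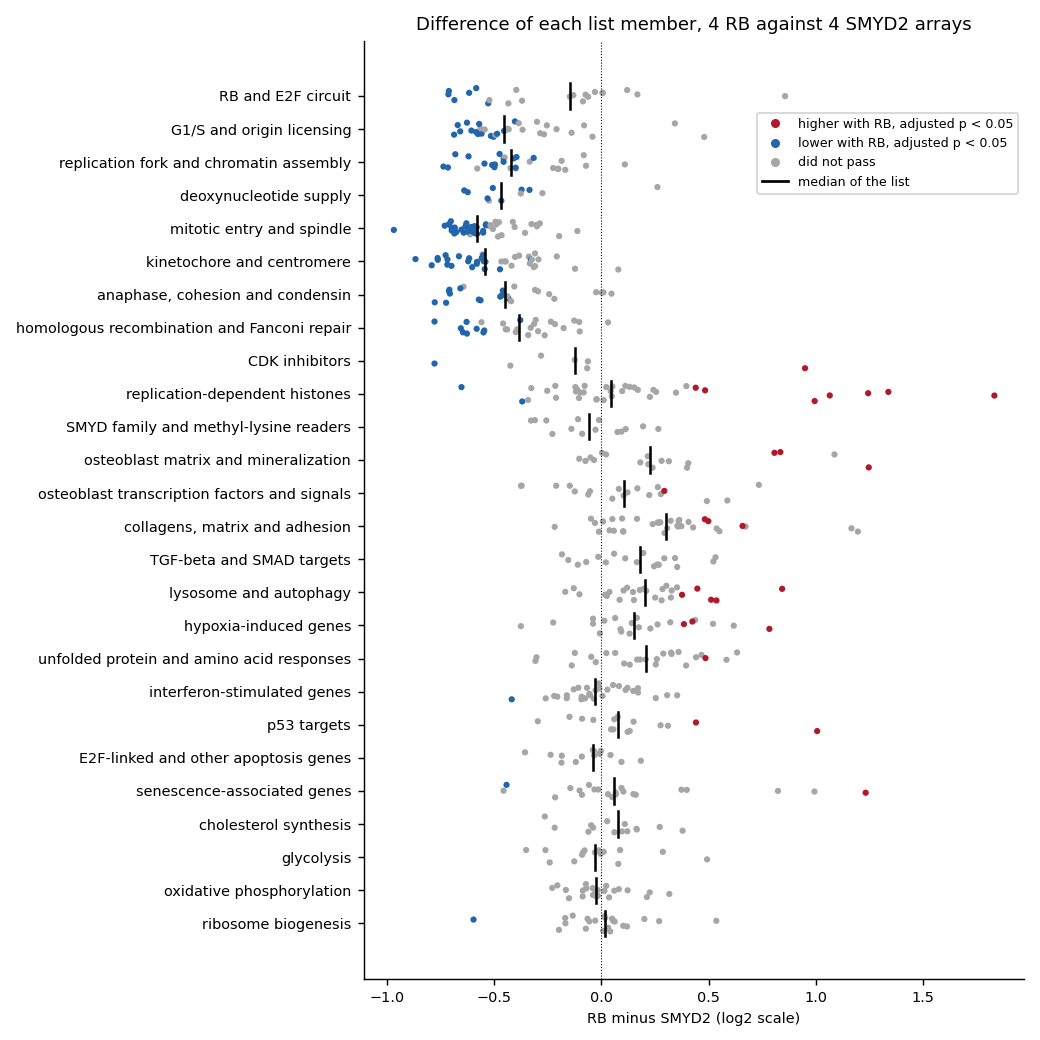
Difference of each measured member of 26 gene lists, RB minus SMYD2 on the log2 scale, coloured by whether it passed limma at an adjusted p of 0.05, with the median of each list as a line. The 8 cell cycle lists lie mostly below 0, with medians from -0.58 to -0.15, and the collagen list has the highest median, 0.30.

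Lysosome and autophagy genes rose in 5 of 26 measured, with 0 lower and 23 positive differences (median 0.20), against 9380 positive of all 19775 genes. WIPI1, which binds the membrane of forming autophagosomes, read 9.05, 9.21, 9.39 and 9.15 with RB and 8.50, 8.35, 8.19 and 8.39 with SMYD2 (difference 0.84, adjusted p = 5.6e-04). LAMP2, a protein of the lysosomal membrane, read 11.48, 11.36, 11.37 and 11.44 against 10.65, 11.11, 10.93 and 10.92 (difference 0.51, adjusted p = 0.012). Both were separate between groups, and BECN1 (0.45), GABARAPL1 (0.38) and TPP1 (0.54), the first pair being autophagy proteins and TPP1 a lysosomal peptidase, were also called, BECN1 with 2 of 3 probe sets higher. TPP1 did not pass in 9 of 16 fits that each left out 1 array (highest adjusted p = 0.160, without RB array 4).

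Of 15 measured p53 target genes 2 rose and 0 fell. In limma 0 members of this list, of the lysosome list and of the bone, signal and collagen lists above had an unadjusted p under 0.05 downward. TP53INP1, a stress protein that takes part in autophagy and cell death, read 8.58, 8.48, 8.66 and 8.58 with RB and 7.74, 7.73, 7.32 and 7.49 with SMYD2. The lowest RB array lay 0.74 above the highest SMYD2 array (difference 1.01, adjusted p = 4.4e-04), in the brightest of 3 probe sets of which 1 was higher. ZMAT3, a zinc finger protein, rose by 0.44 (adjusted p = 0.028, and 0.113 without RB array 4). SAOS cells lack functional p53, and MDM2 differed by -0.15 (adjusted p = 0.592). Hypoxia-induced genes rose in 3 of 22: STC2, a secreted glycoprotein (0.78), P4HA2, a collagen prolyl hydroxylase (0.42, with 2 of 3 probe sets higher), and MXI1, a repressor of MYC targets (0.38). STC2 (adjusted p = 0.074) and MXI1 (adjusted p = 0.105) did not pass without RB array 3, and the count was 1 without that array, SMYD2 array 4 or SMYD2 array 5. The 25 measured genes that respond to unfolded protein or to lack of amino acids held 1 that rose, HERPUD1 (0.49, adjusted p = 0.012, and 0.057 without RB array 4). Without SMYD2 array 1, 1 of the 25 also fell.

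Among 22 measured genes linked to senescence, most of which encode secreted factors, 1 rose and 1 fell. PTGES, the prostaglandin E synthase, read 9.61, 9.50, 9.63 and 9.32 with RB and 8.46, 8.30, 8.25 and 8.13 with SMYD2 (difference 1.23 ± 0.12, SE; adjusted p = 1.1e-04). The lowest RB array lay 0.86 above the highest SMYD2 array. LMNB1, lamin B1 of the nuclear envelope, known to fall in senescent cells, read 10.38, 10.23, 10.16 and 10.04 against 10.39, 10.49, 10.74 and 10.95 (difference -0.44, adjusted p = 0.047, with a call lost in 11 of 16 fits that left out 1 array). The highest RB array and the lowest SMYD2 array were nearly equal. IGFBP5 (0.99, adjusted p = 0.197) and PLAU (0.82, adjusted p = 0.197) had large mean differences and overlapping arrays.

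The other leading increases lay outside these lists. SLC16A4, of the monocarboxylate transporter family, read 6.83, 6.80, 6.12 and 6.10 with RB and 5.17, 5.27, 4.39 and 4.64 with SMYD2 (difference 1.59 ± 0.22, SE; adjusted p = 6.2e-04). In both groups arrays 1 and 3 were higher than arrays 4 and 5. SLC16A4 was dim with SMYD2, under the median probe set on every array of that group. LRRC15, a leucine-rich repeat membrane protein of mesenchymal cells, read 12.03, 12.21, 12.15 and 12.06 against 10.37, 11.48, 10.60 and 10.77, a tight RB group above a wide SMYD2 group (difference 1.31, adjusted p = 7.5e-04). RAB27B, a small GTPase of secretory vesicles, read 9.39, 9.16, 9.18 and 9.02 against 7.61, 8.35, 7.85 and 8.08 (difference 1.21, adjusted p = 5.8e-04). These 3 genes were called in every fit that left out 1 array.

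SEMA3C, a secreted guidance protein, rose by 1.15, ALDH1L2, a mitochondrial folate enzyme, by 1.16, and ADGRG1, an adhesion receptor, by 1.01, the last in 1 of 2 probe sets. IGDCC4, of the immunoglobulin superfamily (1.14), RCAN2, a regulator of calcineurin (1.03), and LY96, the co-receptor of TLR4 (1.01), were called with all arrays and lost in 4, 10 and 4 of 16 fits that each left out 1 array. Their highest adjusted p was 0.064 for IGDCC4 and 0.121 for RCAN2, both without RB array 4, and 0.076 for LY96 without RB array 3. For ADGRG1 it was 0.054, without RB array 3.

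Decreases outside the lists were few among the largest. PHF19, a Polycomb-associated protein, read 9.67, 9.53, 9.56 and 9.81 with RB and 10.58, 10.43, 10.53 and 10.46 with SMYD2 (difference -0.85, adjusted p = 2.1e-04). C1QTNF2, a secreted C1q-like protein, read 7.56, 7.49, 7.57 and 7.83 against 8.71, 8.35, 8.23 and 8.44 (difference -0.82, adjusted p = 0.0016). Both separated the groups fully. IQGAP3, a scaffold protein of dividing cells, fell by 0.72 in its brightest probe set (1 of 4 was not lower) but not without SMYD2 array 1 (adjusted p = 0.077) or RB array 4 (adjusted p = 0.133). TIAM1-AS1, an antisense RNA gene, fell by 0.75 with SMYD2 array 1, its highest array at 7.27, and by 0.50 without it, and did not pass without RB array 4 (adjusted p = 0.088).

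Several groups showed few calls or none. No gene passed among 14 of the SMYD family and methyl-lysine readers (6 at an unadjusted p under 0.05 in limma, 2 up and 4 down), 14 apoptosis genes (0 at an unadjusted p under 0.05), 14 genes of cholesterol synthesis (2 up and 2 down), 15 of glycolysis (2 up and 0 down) and 25 of oxidative phosphorylation (1 up and 3 down). Of 30 interferon-stimulated genes 1 fell, OAS3 (-0.42, adjusted p = 0.024, and 0.075 without RB array 3), and of 22 ribosome biogenesis genes 1 fell, FBL, the methyltransferase fibrillarin (-0.60, adjusted p = 0.014, and 0.054 without RB array 3). Without SMYD2 array 1, 2 genes fell in each of the latter lists. The medians of these lists lay between -0.06 and 0.08. SMYD3 (0.27, adjusted p = 0.087) and SMYD5 (-0.26, adjusted p = 0.074) had arrays that did not overlap and did not pass. They were the only such members of the 14, 1 up and 1 down, where arrays did not overlap in 8.95% of all genes.

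The untransfected control arrays read closer to the SMYD2 group than to the RB group for most of the called genes. The control mean lay nearer the SMYD2 mean in 624 of 642, 264 of those higher and 360 of those lower with RB. For the genes called higher, the median difference from control was 0.43 with RB and -0.06 with SMYD2, and for the genes called lower it was -0.48 with RB and 0.03 with SMYD2. The groups share the control arrays and the choice of the genes used both, so these values are a description. E2F1 read 9.27 ± 0.06 in control and H2BC4 6.90 ± 0.47 (SD, n = 4 each), both among the SMYD2 values above.

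The remaining 8 arrays, which held cells given both constructs and untransfected cells, shared no array with the comparison, although transfection and SMYD2 stand on 1 side there. Both sets of calls came from the same fit over all arrays and share each gene's estimate of the spread. Genes called in both are therefore not an independent reading, while the differences themselves do not use that estimate. In these 8 arrays 594 genes (3.00%) were higher and 830 (4.20%) lower with RB plus SMYD2 than in control. Of the 274 genes higher with RB than with SMYD2, 185 (67.5%) were also higher there, and of the 368 lower genes 334 (90.8%) were also lower. Those are 31.1% of the higher and 40.2% of the lower genes of that comparison. In opposite directions 0 genes were called, while 8 of 642 had differences of opposite sign. Over all genes, 56.9% of the differences were positive in these 8 arrays. With the replicate number as a block, which treats equal numbers as paired, that comparison called 2562 genes in place of 1424. Without 1 array of its own it called as few as 899 (RB plus SMYD2 array 4), 925 (RB plus SMYD2 array 5) and 949 (control array 4).

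The lower genes were lower still in those arrays and the higher genes were not uniformly so. In 292 of 368 lower genes the difference was larger there, with a median of -0.65 against -0.50, and in 106 of 274 higher genes, with a median of 0.44 against 0.50. FOXM1 was -0.71 in RB against SMYD2 and -1.21 in the other arrays (adjusted p = 2.9e-06 there), and CCNB1, which did not pass in the first, was -0.99 (adjusted p = 0.0095). CCNB1 in RB against SMYD2 was -0.40 with all arrays and -0.74 without SMYD2 array 1. Of the 8 cell cycle lists 190 of 230 genes were lower in the other arrays, with a median of -0.84. In RB against SMYD2 the median of these lists was -0.47, and -0.55 without SMYD2 array 1. Among increases, H4C8 was 1.34 and 1.91, H2BC21 1.24 and 1.68, and CDKN2B 0.95 and 1.07, all called in both. LOX (0.66 and 0.08, adjusted p = 0.849 there), SPP1 (0.81 and 0.41, adjusted p = 0.157) and ALDH1L2 (1.16 and 0.51, adjusted p = 0.174) were called in RB against SMYD2 and not in the other arrays. Whether the 2 differences of a gene differ from each other was not tested. The RB1 signal differed as well. Its brighter probe set read 8.67 ± 0.90 with RB plus SMYD2 and 6.48 ± 0.32 in control (SD, n = 4 each), a difference of 2.19. In RB against SMYD2 that set differed by 0.86, with 7.70 ± 0.34 on the RB arrays. What part the RB1 level or SMYD2 array 1 had in the larger differences was not tested.

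**Figure D5:**
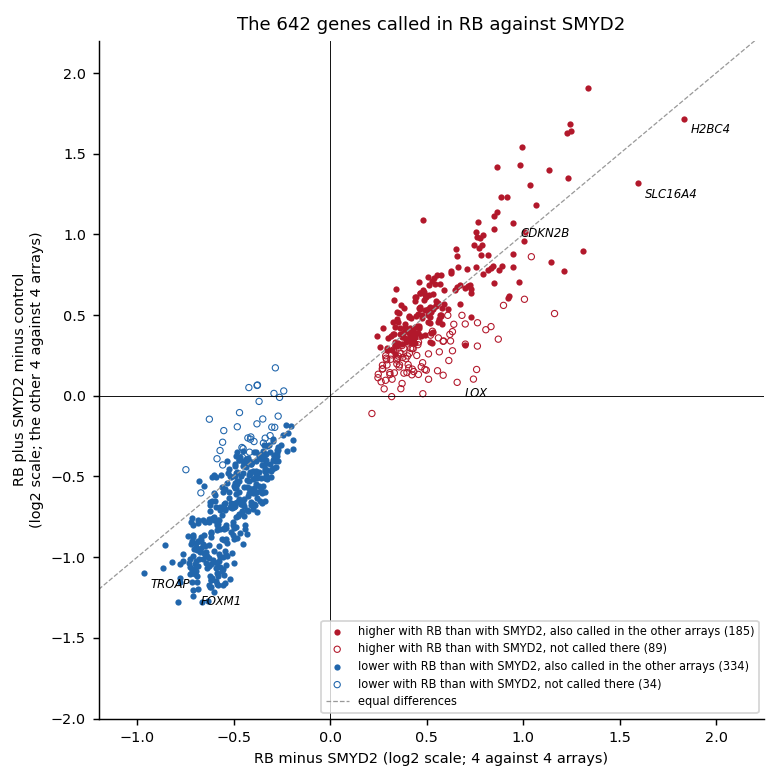
Each of the 642 called genes by its difference in RB against SMYD2 (horizontal) and in RB plus SMYD2 against control (vertical), both on the log2 scale, from arrays that do not overlap between the axes. Filled points were called in both, 185 higher and 334 lower, and open points in RB against SMYD2 alone. Both sets of calls share each gene's estimate of the spread. Most lower genes lie below the line of equal differences.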

How the data were processed

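Transcript levels were measured on Affymetrix Human Genome U133 Plus 2.0 arrays, 1 sample per array. The authors deposited log2 signals of 54675 probe sets, made with RMA (version not stated), per the submitters' processing notes. The sources used here do not say whether all arrays were normalized in 1 run. RMA keeps no detection call, and precision is limited by the number of arrays.

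Of the probe sets, 41097 carried 1 gene symbol in the platform annotation, 1801 several and 11777 none, and 41043 matched a RefSeq gene. Each of 19775 genes was read from 1 probe set, the one brightest on average across the 16 arrays. RB was set against SMYD2 with limma 3.58.1 in R 4.3.3 (lmFit, 1 mean per group over 16 arrays, eBayes with a trend). Tests were two-sided, p-values were adjusted over all genes by Benjamini-Hochberg, and the threshold was 0.05. All adjusted p-values are from it. The fit was tested on simulated data: it recovered 60% of 100 genes changed by 0.5 and 97% of 100 changed by 1, with 9 false calls. The simulated noise was independent and equal on all arrays of a gene. The real arrays were of unequal quality, so these rates need not hold for them. Single probe sets were tested by exact permutation.

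The comparison, the 26 gene lists and the marker lists were chosen with earlier results of these data known, so counts over a list are descriptions. Genes named are RB1, SMYD2, L3MBTL1, the 15 largest increases and decreases that passed without overlap of the arrays, a set of cell cycle genes, the inhibitors of cyclin-dependent kinases and the 6 largest differences of each list. Others are said to be named after their values were seen. Equal array numbers of RB plus SMYD2 and control deviated together (correlations 0.217 to 0.496), so their blocked count is given. RB plus SMYD2 array 4 correlated slightly better with control array 5 (0.260) than with control array 4 (0.217), so pairing is not shown for every array. Alternatives changed the arrays in the fit, the block, the scaling, the probe set, filters on dim genes and array weights, and left out each array. Promoter windows came from RefSeq (GRCh38.p14). Probe sets with several symbols or none name no gene here (25 of 13522 called). Figures were drawn with matplotlib 3.10.9.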

Additional observations from a re-analysis of the deposited data

Results flagged for a closer look

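Each group of 4 arrays was searched for an array far from the other 3, for the 33 genes named as largest or as transfected for the 26 list means and for the mean of the 8 cell cycle lists together, which made 120 groups. Of these 4 stood out by Dixon's criterion on the gap to the nearest array, and chance alone marks about 1 in 20. SGO2 read 10.30 on RB array 3, with the other RB arrays at 10.61 to 10.66. The mean of the RB and E2F circuit was 8.55 on RB array 4 and 8.51 to 8.52 on the other RB arrays. On SMYD2 array 1, the array with the largest ACTB 3′ to 5′ difference of its group, the kinetochore and centromere mean was 9.51, with the others at 9.75 to 9.79, and the ribosome biogenesis mean was 10.20, with the others at 10.42 to 10.46. What part RNA quality had in these values was not tested.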

How the results depend on the processing

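The count of called genes in RB against SMYD2, 642 with all arrays, was 193 when only its 8 arrays were fitted, 191 of which were among the 642. It was 1831 with the replicate number as a block, 200 with the block and only the 8 arrays, and 1790 with array weights. Deviations of equal array numbers of RB and SMYD2 correlated at -0.077 to 0.425. Of these arrays, 3 of 4 RB and 2 of 4 SMYD2 arrays correlated best with their own number. Pairing by number is thus neither shown nor excluded for RB and SMYD2. Genes said above not to pass were judged without the block, and some of them passed with it. Leaving out each of the 16 arrays gave 304 to 888. RB plus SMYD2 against control, 1424, became 2562 with the replicate block, 3213 with the block and its 8 arrays and 3687 with array weights, and leaving out each array gave 899 to 2032. The 114 lower cell cycle genes became 67 in the 8-array fit, 55 with the block in it, 154 with the block over 16 arrays and 186 with array weights, and 81 to 160 when each array was left out. The 7 rising histone genes became 4 in the 8-array fit, 10 with the block or array weights and 4 among genes with a mean of at least 8, and 4 to 8 when each array was left out. Scaling again, centring, dropping the trend, the mean over probe sets and filters on dim genes left the main count between 555 and 805. Of 190 named genes 90 were called, of which 33 were lost in the 8-array fit, 28 with the block in it and 0 with the block over 16 arrays or array weights. The block over 16 arrays added 41 of the 190, among them COL1A2 (adjusted p = 5.0e-06), MCM4 (2.5e-04), MCM5 (3.3e-04), MCM6 (0.0060) and RB1 (0.024). Array weights added 34. Several values near 0 that had not passed changed sign, by more than their error (1 SE of the fit, or the smaller group SD) in 2 cases: CDKN1C to 0.24 with array weights, and the dimmest SMYD2 probe set, which ran from -0.11 (without SMYD2 array 3) to 0.14 (without SMYD2 array 1). The cause of these shifts was not tested.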
